A study of Mus musculus with 3 samples.

Results

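Complement and coagulation factors were followed in RNA of mouse hepatocyte preparations on 3 single-colour (Cy3) Agilent arrays, 1 array for each group. The members were 49 named genes of these cascades, taken as every non-control spot whose gene name on the array equals a member. They were read by 65 of 39395 probes and 101 of 43020 spots, and are 49 of 31870 genes on the array. The rule uses names and no signal. By where their product is mainly made, 38 members were counted as secreted by hepatocytes, 5 as C1q chains and anaphylatoxin receptors of macrophages (C1qa, C1qb, C1qc, C3ar1 and C5ar1) and 6 as made mainly by other cells (Cfp, F13a1, F3, F8, Tfpi and Vwf).

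All 3 groups were male wild-type C57BL/6 mice aged 22 weeks. The anti-VLA-4 group ate a high-fat diet and received an antibody that blocks VLA-4, an integrin with which leukocytes bind endothelium. The HFD-IgG group ate the same diet and received control IgG, and the standard-diet group had no injection listed. Diets began at 6 weeks of age and lasted 16 weeks. The injections started after 10 weeks of high-fat feeding and were given into the peritoneum at 2 per week for 6 weeks. Livers were digested with collagenase after an overnight fast. How many mice went into an array is not stated, so an array may hold RNA of 1 mouse or of several.

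Each value is a scaled signal, the processed signal of a probe divided by the 75th percentile of the non-control spots on its array, so that 1 stands for that percentile. Scaled signals of different probes are not comparable with each other, and only the same probe is compared between arrays. The 75th percentile signal was 514 (anti-VLA-4), 500 (HFD-IgG) and 574 (standard diet). Spots well above background made up 62.4% (anti-VLA-4), 66.5% (HFD-IgG) and 57.3% (standard diet), and 0 spots were saturated. No group has a replicate array. No difference therefore has a replicate check or a p-value, and the spread between mice or preparations is unknown. The errors available lie within an array. The scanner's error of a difference was typically 0.20 in log2, or 1.15-fold, and repeated spots of a probe had a median SD of 0.08 to 0.11 in log2. A difference of at least 2-fold is counted as a call. HFD-IgG and standard diet shared a slide while anti-VLA-4 lay on another, so the slide and the antibody cannot be told apart. Diet and IgG injection likewise cannot be told apart in HFD-IgG over standard diet.

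Complement is a plasma cascade in which C1q, lectins or spontaneous C3 turnover start the cleavage of C3 and the assembly of a membrane pore. Coagulation is a cascade of proteases that ends in thrombin cutting fibrinogen to fibrin. Hepatocytes make most of the circulating proteins of both. C1q is made chiefly by macrophages, including the Kupffer cells of the liver, and factor VIII and von Willebrand factor by endothelial cells.

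The labelled cell type was checked against marker genes. Of the hepatocyte markers, 7 of 8 were on the array and all 7 were well above background on every array. Alb, encoding albumin, had scaled signals of 617 (anti-VLA-4), 762 (HFD-IgG) and 747 (standard diet). The 7 hepatocyte markers together summed to 1524 (anti-VLA-4), 1578 (HFD-IgG) and 1740 (standard diet). A sum is weighted to its brightest probes, and 4 of the 7 were lower in HFD-IgG over standard diet (median -0.68 in log2). Markers of other liver cells were present as well and differed more. The 11 Kupffer cell and macrophage markers summed to 50.2 (anti-VLA-4), 65.6 (HFD-IgG) and 9.87 (standard diet). The 9 sinusoidal endothelial markers summed to 34.0 (anti-VLA-4), 56.2 (HFD-IgG) and 15.1 (standard diet), and the 8 stellate cell markers to 15.6 (anti-VLA-4), 31.4 (HFD-IgG) and 3.30 (standard diet). The endothelial sums include Kdr, which was level at 9.07 (anti-VLA-4), 9.25 (HFD-IgG) and 9.07 (standard diet). These preparations thus held RNA of several cell types, and the sums of these 3 lists were highest on the HFD-IgG array and lowest on the standard-diet array. In such bulk RNA, fewer cells of a type and less RNA per cell cannot be told apart.

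The probes of the C1q chains are shown because all 3 chains passed 2-fold in HFD-IgG over standard diet. Each probe is 60 bases long, and the capitals mark runs of 4 or more purines (A or G), since the share of genes called differed with the purine content of the probe. Their positions on build mm9, as the array files give them, are chr4:136452409-136452468, minus strand for C1qa, chr4:136436578-136436637, minus strand for C1qb and chr4:136445766-136445825, minus strand for C1qc.
C1qa: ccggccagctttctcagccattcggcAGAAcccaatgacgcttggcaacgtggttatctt
C1qb: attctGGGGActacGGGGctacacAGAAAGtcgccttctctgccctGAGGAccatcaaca
C1qc: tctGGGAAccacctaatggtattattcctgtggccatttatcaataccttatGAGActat
These probes hold 43.3% (C1qa), 50% (C1qb) and 43.3% (C1qc) purines. The same marking is used for the probe of C6, the secreted member that differed most between HFD-IgG and standard diet (chr15:4748363-4748422, plus strand, 48.3% purines), for both probes of Fga, which gave the same direction, and for both probes of F3, which did not. The Fga probes lie at chr3:82835678-82835737, plus strand and chr3:82837260-82837319, plus strand. The F3 probes are at chr3:121437717-121437776, plus strand and chr3:121434609-121435346, plus strand, the second spanning more of the genome than its own length. Annotation of build mm9 was not used here.
C6: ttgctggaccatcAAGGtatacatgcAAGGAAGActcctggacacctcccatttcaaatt
Fga, brighter probe: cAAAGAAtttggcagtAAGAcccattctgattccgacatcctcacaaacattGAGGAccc
Fga, dimmer probe: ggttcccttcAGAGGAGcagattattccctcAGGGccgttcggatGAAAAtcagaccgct
F3, brighter probe: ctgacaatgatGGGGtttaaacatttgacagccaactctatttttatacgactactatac
F3, dimmer probe: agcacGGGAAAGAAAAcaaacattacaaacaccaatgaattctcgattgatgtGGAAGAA

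HFD-IgG over standard diet asks how the high-fat diet with IgG differed from the standard diet. The genes of C1q and of several endothelial factors were much higher on the HFD-IgG array. The secreted factors lay near 0, but below it with normexp background correction (median -0.68). Of 48 members compared, 7 were at least 2-fold higher and 1 lower, against 20.4% higher and 2.41% lower among all 22002 genes compared. The number of higher members was thus not above the share over all genes. With quantile scaling, the shares over all genes were 10.9% higher and 11.8% lower, and 6 members were higher and 1 lower. By class, 0 of 38 secreted members, 3 of 5 C1q and receptor members and 4 of 5 compared members of other cells were at least 2-fold higher. Of 5108 genes outside the list that were at least as bright as the dimmest secreted member, 1.88% were at least 2-fold higher and 1.57% lower, so that 0 of 38 is near the share at that brightness. The medians of the classes were 0.01, 2.26 and 2.31 in log2, beside 0.04 for all genes.

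Anti-VLA-4 over HFD-IgG sets the antibody array against the control IgG array on the high-fat diet, with antibody and slide not told apart. Here the classes lay on opposite sides of 0, with modest differences. Of 49 members, 1 (Fga) was at least 2-fold higher and 1 (F8) lower, set against 1.9% higher and 16.5% lower among 22589 genes. With quantile scaling 2 members were higher and 0 lower, and the shares over all genes were 10.3% and 8.84%. The median was 0.28 for the secreted members, -0.56 for C1q and the receptors and -0.60 for the other 6, beside -0.06 for all genes.

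In anti-VLA-4 over standard diet, 7 of 49 members were at least 2-fold higher and 1 lower, against 7.98% and 3.39% of 20334 genes. With quantile scaling these shares were 5.56% and 3.98%, and 6 members were higher and 1 lower. The class medians were 0.33 for secreted members, 1.94 for C1q and receptors and 1.43 for the members of other cells, beside 0.00 for all genes. Each pair of these comparisons shares an array, so they are not independent of each other.

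**Figure D1:**
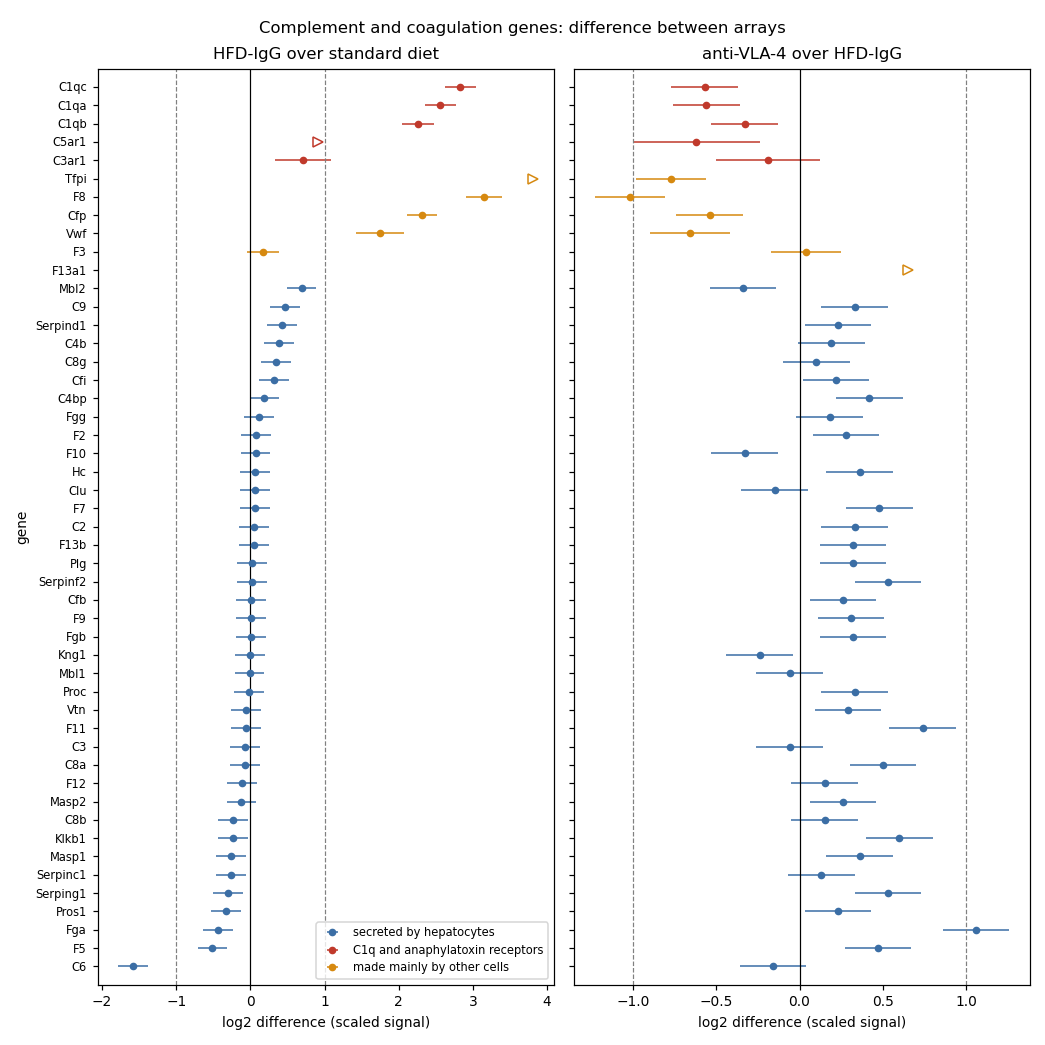
Log2 difference of the scaled signal for the 49 genes, in HFD-IgG over standard diet (left panel) and anti-VLA-4 over HFD-IgG (right panel), coloured by class. F13a1 has no point on the left, where it was not compared. Bars are the scanner's error, open triangles are lower bounds for genes not well above background on the dimmer array, and dashed lines mark 2-fold. The C1q genes lie between 2.26 and 2.83 on the left, whereas 36 of the 38 secreted genes lie within 1.5-fold there.

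C1qa, C1qb and C1qc encode the 3 chains of C1q, the molecule that starts the classical pathway by binding antibody. C1qa had scaled signals of 1.61 (anti-VLA-4), 2.38 (HFD-IgG) and 0.404 (standard diet). C1qb had 1.77 (anti-VLA-4), 2.21 (HFD-IgG) and 0.461 (standard diet), and C1qc had 2.24 (anti-VLA-4), 3.33 (HFD-IgG) and 0.469 (standard diet). All 3 chains were highest on the HFD-IgG array, intermediate on the anti-VLA-4 array and lowest on the standard-diet array. C1qa, C1qb and C1qc were 5.90-fold, 4.80-fold and 7.10-fold higher in HFD-IgG over standard diet. In anti-VLA-4 over HFD-IgG they were 1.48-fold, 1.25-fold and 1.49-fold lower, with log2 differences of -0.56, -0.33 and -0.57 and a scanner error of 0.20 each. Over standard diet, anti-VLA-4 was still 4-fold, 3.83-fold and 4.77-fold higher. Directions of the 3 chains were the same with quantile scaling and with normexp background correction, where the difference of C1qb in anti-VLA-4 over HFD-IgG shrank to -0.08.

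The probe of C1qc was printed at 10 places on each array. These spots read 2.08 to 2.39 (anti-VLA-4), 2.95 to 3.78 (HFD-IgG) and 0.419 to 0.505 (standard diet), with means of 2.24 ± 0.101, 3.33 ± 0.252 and 0.469 ± 0.0252 (SD over 10 spots of 1 array). No spot of an array overlapped with those of another. Spots of an array are technical repeats of one hybridisation and do not show how mice vary.

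C3ar1 and C5ar1 encode the receptors through which the fragments of C3 and C5 attract and activate myeloid cells. Both were dim. C3ar1 had scaled signals of 0.0620 (anti-VLA-4), 0.0707 (HFD-IgG) and 0.0431 (standard diet). C5ar1 had 0.0313 (anti-VLA-4), 0.0483 (HFD-IgG) and 0.00564 (standard diet), the last not well above background. C3ar1 was 1.64-fold higher in HFD-IgG over standard diet, C5ar1 at least 1.88-fold. In anti-VLA-4 over HFD-IgG their log2 differences were -0.19 and -0.62, but with quantile scaling they were 0.57 and 0.33, and C3ar1 in HFD-IgG over standard diet turned to -0.36. The direction of C3ar1 in both comparisons, and of C5ar1 between the high-fat arrays, thus turned with the scaling.

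Macrophage markers moved alongside. The macrophage list, Kupffer cells included, passed 2-fold upwards with all 11 markers in HFD-IgG over standard diet (median 2.69), 9 of 11 lay below 0 in anti-VLA-4 over HFD-IgG (median -0.36), and all 11 passed 2-fold upwards in anti-VLA-4 over standard diet (median 2.5). Clec4f, a lectin of Kupffer cells, had scaled signals of 5.01 (anti-VLA-4), 6.73 (HFD-IgG) and 1.04 (standard diet). Adgre1, encoding F4/80, had 0.773 (anti-VLA-4), 1.17 (HFD-IgG) and 0.137 (standard diet). The C1q and receptor members summed to 5.71 (anti-VLA-4), 8.04 (HFD-IgG) and 1.38 (standard diet). The order of arrays was that of the summed macrophage markers, and the part of macrophage number in the C1q values was not tested. S100a8 of neutrophils and monocytes had another order, with 0.419 (anti-VLA-4), 0.102 (HFD-IgG) and 0.0369 (standard diet). That list was mixed, with 2 of 6 compared at least 2-fold higher and 1 lower in anti-VLA-4 over HFD-IgG (median 0.16), the lower one being Ccr2 of monocytes (-1.52).

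Properdin (Cfp), the stabiliser of the alternative convertase that leukocytes release, read 3.35 (anti-VLA-4), 4.88 (HFD-IgG) and 0.984 (standard diet). It was 4.96-fold higher in HFD-IgG over standard diet, 1.46-fold lower on anti-VLA-4 than on HFD-IgG and 3.40-fold higher in anti-VLA-4 over standard diet. Its probe holds 63.3% purines. Among all genes, 30% with a probe over 50% purines were at least 2-fold higher in HFD-IgG over standard diet, against 11% with at most 50%. Of the members, 2 of 17 with such purine-rich probes and 5 of 31 others were called higher. The part of probe composition in the purine-rich calls was not tested.

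Factor VIII, von Willebrand factor and the tissue factor pathway inhibitor are products of endothelium. F8, the cofactor of factor IX, had scaled signals of 0.268 (anti-VLA-4), 0.543 (HFD-IgG) and 0.0612 (standard diet). Tfpi, which blocks the start of coagulation, had 0.211 (anti-VLA-4), 0.361 (HFD-IgG) and 0.0255 (standard diet), the last not well above background. Vwf, which carries factor VIII and tethers platelets, had 0.0700 (anti-VLA-4), 0.111 (HFD-IgG) and 0.0330 (standard diet). All 3 were highest on the HFD-IgG array and lowest on the standard-diet array.

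F8 was 8.87-fold, Tfpi at least 14.1-fold (by its brighter probe) and Vwf 3.36-fold higher in HFD-IgG over standard diet. In anti-VLA-4 over HFD-IgG, F8 was 2.03-fold, Tfpi 1.71-fold and Vwf 1.58-fold lower. In anti-VLA-4 over standard diet, F8 was 4.38-fold, Tfpi at least 8.22-fold (by the same probe) and Vwf 2.12-fold higher. With quantile scaling, Vwf fell short of 2-fold in HFD-IgG over standard diet (0.74 in log2) and was level in anti-VLA-4 over HFD-IgG (-0.03), where F8 was at -0.94. The main F8 probe holds 65% purines. A second F8 probe, with 58.3% purines, read 0.0269 (anti-VLA-4), 0.0590 (HFD-IgG) and 0.00615 (standard diet, not well above background), with a log2 difference of -1.13 for anti-VLA-4 over HFD-IgG. In that comparison, 27.2% of all genes with a probe over 50% purines were at least 2-fold lower, against 6.15% with at most 50%. Both F8 probes are thus purine-rich, and the part of probe composition in the lower F8 values was not tested. A second Tfpi probe of 46.7% purines was well above background on every array and gave smaller folds than the bounds of the brighter Tfpi probe. It was 5.27-fold higher (2.40 in log2) in HFD-IgG over standard diet and 3.26-fold higher in anti-VLA-4 over standard diet. In anti-VLA-4 over HFD-IgG it gave -0.69.

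Among 9 markers of sinusoidal endothelium, 7 passed 2-fold upwards in HFD-IgG over standard diet (median 2.81) and all 9 lay below 0 in anti-VLA-4 over HFD-IgG (median -0.90). Stab2, a scavenger receptor of these cells, had scaled signals of 4.95 (anti-VLA-4), 8.16 (HFD-IgG) and 1.21 (standard diet). The part of endothelial cells in the values of F8, Tfpi and Vwf was not tested. Platelets also store Vwf. Their marker Pf4 read 0.165 (anti-VLA-4), 0.205 (HFD-IgG) and 0.0429 (standard diet), and of 5 platelet markers no more than 2 were well above background on any array. Itga2b, the other platelet marker compared, had another order. It read 0.00553 (anti-VLA-4, not well above background), 0.0698 (HFD-IgG) and 0.039 (standard diet). Lrat of stellate cells read 0.0954 (anti-VLA-4), 0.166 (HFD-IgG) and 0.0163 (standard diet, not well above background), and Krt19 of bile ducts 0.0199 (anti-VLA-4, not well above background), 0.0619 (HFD-IgG) and 0.0726 (standard diet). Of the 5 bile duct markers, however, 3 passed 2-fold upwards in HFD-IgG over standard diet (median 1.60), and 3 passed it downwards in anti-VLA-4 over HFD-IgG (median -1.46).

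F3, encoding tissue factor, the trigger of coagulation, gave unlike answers by probe. Its brighter probe had scaled signals of 0.404 (anti-VLA-4), 0.394 (HFD-IgG) and 0.351 (standard diet). The dimmer probe, with 66.7% purines and the longest purine run of those printed above (11 bases), had 0.0326 (anti-VLA-4), 0.214 (HFD-IgG) and 0.0419 (standard diet). Against standard diet, HFD-IgG differed with the brighter probe by 0.17 and with the dimmer by 2.36 in log2, and anti-VLA-4 differed from HFD-IgG by 0.04 and -2.72. F13a1, encoding the catalytic chain of the fibrin crosslinking factor XIII, which macrophages and platelets make, was well above background on the anti-VLA-4 array alone (0.0496, against 0.0106 on HFD-IgG and 0.00911 on standard diet). That is at least 1.57-fold higher than on HFD-IgG and at least 1.93-fold higher than on standard diet. Its second probe was above background on no array.

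**Figure D2:**
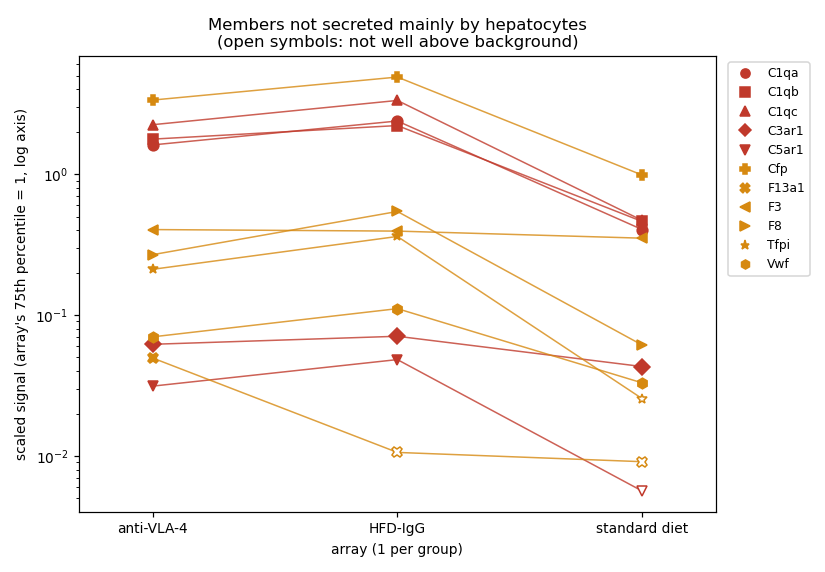
Scaled signal on a log axis of the 11 genes not secreted mainly by hepatocytes, on the anti-VLA-4, HFD-IgG and standard-diet arrays, with 1 point per array and lines joining a gene. Red marks C1q and receptors, orange the genes of other cells, and open symbols were not well above background. C1qc reads 2.24 (anti-VLA-4), 3.33 (HFD-IgG) and 0.469 (standard diet), F3 is nearly level at 0.404 (anti-VLA-4), 0.394 (HFD-IgG) and 0.351 (standard diet), and F13a1 is above background on the anti-VLA-4 array alone.

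The 38 secreted members were well above background on every array. In HFD-IgG over standard diet 20 lay above 0 and 18 below, and 36 were within 1.5-fold. Against the scanner's error, 6 were higher, 9 lower and 23 within it. The median was 0.01. With normexp background correction it was -0.68, with 2 members above 0 and 36 below, and the median of all genes moved to 0.46. The exceptions to the 1.5-fold range were C6, which was lower, and Mbl2, which was higher.

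In anti-VLA-4 over HFD-IgG, 31 of the 38 lay above 0, and 25 exceeded the scanner's error upwards, 3 downwards and 10 not at all. The median was 0.28 (range -0.34 to 1.06), 0.31 with quantile scaling and 0.46 with normexp background correction. Of the 5108 genes outside the 49 that were at least as bright as the dimmest secreted member, 45.4% lay above 0, with a median of -0.03. Of the 7 hepatocyte markers, 5 were above 0, and their median was 0.31. In the other comparisons these markers did not follow the secreted members. The marker median was -0.68 in HFD-IgG over standard diet, with 3 of 7 above 0. It was -0.38 in anti-VLA-4 over standard diet, with 2 of 7 above 0. In anti-VLA-4 over standard diet, 28 secreted members lay above 0 and the median was 0.33, but it was -0.19 with normexp background correction, where 8 lay above 0. The 5108 genes as bright had a median of -0.12 there and 35.7% above 0.

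**Figure D3:**
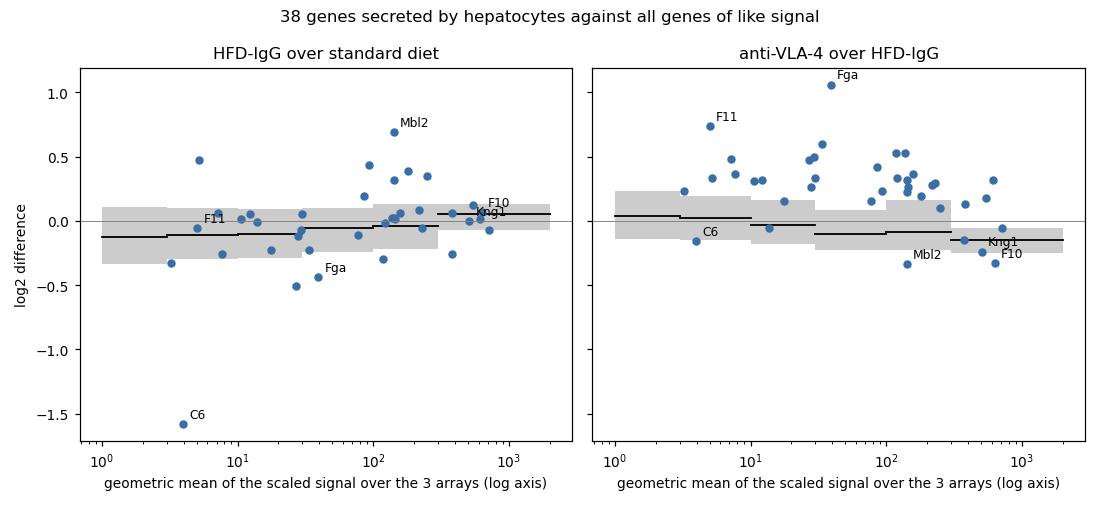
Log2 difference of the 38 secreted genes (blue points) against the geometric mean of the scaled signal over the 3 arrays on a log axis, in HFD-IgG over standard diet (left) and anti-VLA-4 over HFD-IgG (right). Black lines and grey boxes are the median and middle quartiles of all genes in each range of signal. On the right 31 of 38 points lie above 0, and those below include Mbl2, C6, Kng1 and F10.

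Secreted members with the strongest signals were the exception in anti-VLA-4 over HFD-IgG. Between scaled signals of 300 and 2000, 3 of 7 secreted members lay above 0 (median -0.06), and so did 15.4% of the 91 genes there (median -0.15). The 3 members of this range that have a second, dimmer probe gave another sign with it. F10 had -0.33 with its brighter probe and 0.28 with its dimmer one. Kng1 had -0.24 and 0.20, and C3 had -0.06 and 0.16. With the dimmest probe above background of each gene, 34 of the 38 lay above 0 and the median was 0.29. Of 14 members compared by several probes, the probes had the same sign for 12 in HFD-IgG over standard diet and for 10 in each of the other comparisons.

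**Figure D4:**
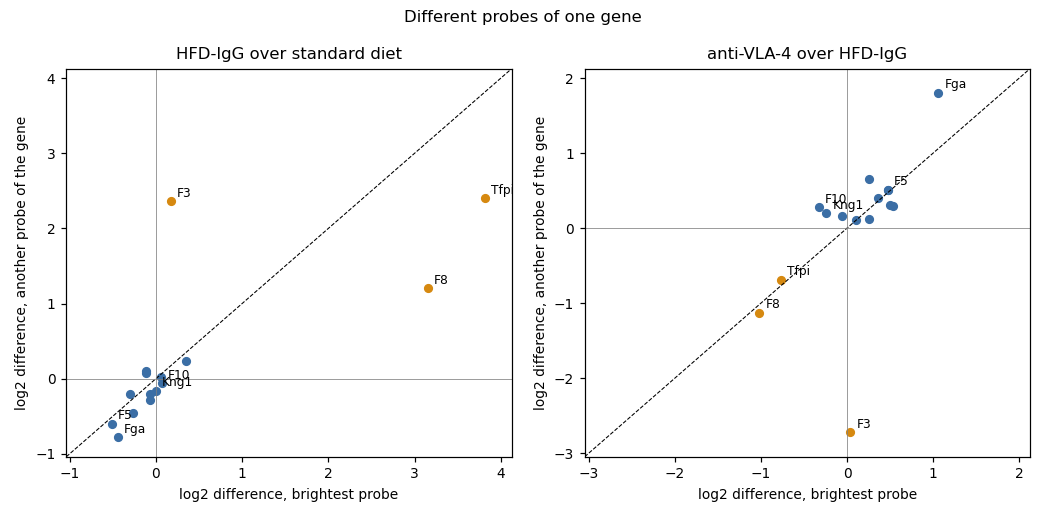
Log2 difference by another probe of a gene (vertical) against that by its brightest probe (horizontal), in HFD-IgG over standard diet (left) and anti-VLA-4 over HFD-IgG (right). Blue points are secreted genes, orange points F3, F8 and Tfpi, and the dashed line marks equal values. Both Fga probes are positive on the right, at 1.06 and 1.80, while the F3 probes are far from the line in both panels.

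The lectin pathway begins with mannose-binding lectins on microbial sugars and their proteases. Mbl2, a mannose-binding lectin, read 142 (anti-VLA-4), 180 (HFD-IgG) and 112 (standard diet). It was 1.61-fold higher in HFD-IgG over standard diet, and 0.01 in log2 with normexp background correction, and -0.34 in anti-VLA-4 over HFD-IgG. Mbl1, another such lectin, was at -0.01 and -0.06 in these comparisons. Masp1, a lectin-bound protease, had scaled signals of 8.47 (anti-VLA-4), 6.62 (HFD-IgG) and 7.93 (standard diet). Masp2, the protease that cleaves C4 and C2, differed by -0.12 and 0.26 in HFD-IgG over standard diet and anti-VLA-4 over HFD-IgG. A probe for another Masp2 transcript read 1.67 (anti-VLA-4), 1.06 (HFD-IgG) and 0.992 (standard diet), with 0.65 in anti-VLA-4 over HFD-IgG.

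Among the parts of the convertases, C3, the central component, had scaled signals of 682 (anti-VLA-4), 711 (HFD-IgG) and 746 (standard diet). Its repeated spots overlapped between all arrays, at 590 to 782 over 10 spots (anti-VLA-4), 678 to 744 over 9 (HFD-IgG) and 639 to 822 over 9 (standard diet). C2, the protease of the classical convertase, had 35 (anti-VLA-4), 27.9 (HFD-IgG) and 26.9 (standard diet). C4b, which encodes C4 and has a near-identical neighbour, Slp, that its probe may also detect, was 1.31-fold higher in HFD-IgG over standard diet, but at -0.37 in log2 with normexp background correction, and differed by 0.19 in anti-VLA-4 over HFD-IgG. Cfb, the protease of the alternative convertase, differed by 0.01 and 0.26. No convertase member passed 2-fold in any comparison.

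Terminal components build the membrane attack pore. C6 had scaled signals of 2.57 (anti-VLA-4), 2.87 (HFD-IgG) and 8.56 (standard diet). It was 2.99-fold lower in HFD-IgG over standard diet and 3.33-fold lower in anti-VLA-4 over standard diet. With each gene read by its brightest probe, C6 alone among the 38 secreted members passed 2-fold in these comparisons. Both high-fat arrays were low, and with a log2 difference of -0.16 anti-VLA-4 lay within the scanner's error of HFD-IgG. One probe reads C6, with 48.3% purines, and the lower values held with quantile scaling (-1.48 and -1.68) and normexp background correction (-1.83 and -1.80). With normexp, F5 (-1.11) and Fga (-1.22) also passed 2-fold downwards in HFD-IgG over standard diet. The dimmer Fga probe was 2.03-fold higher in anti-VLA-4 over standard diet.

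The pore's last component, C9, went the other way from C6, with 6.79 (anti-VLA-4), 5.41 (HFD-IgG) and 3.90 (standard diet). It was 1.39-fold higher in HFD-IgG over standard diet and 1.74-fold higher in anti-VLA-4 over standard diet. C8g, a chain of C8, had 282 (anti-VLA-4), 264 (HFD-IgG) and 206 (standard diet). The other chains, C8a and C8b, differed by -0.07 and -0.23 in HFD-IgG over standard diet and by 0.50 and 0.15 in anti-VLA-4 over HFD-IgG. Hc, encoding C5, differed by 0.06 and 0.36.

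Of the complement regulators made by hepatocytes, C4bp, the C4b-binding protein, had scaled signals of 108 (anti-VLA-4), 80.7 (HFD-IgG) and 70.9 (standard diet), and was 1.53-fold higher against standard diet on the anti-VLA-4 array, a difference that was 0 with normexp background correction (-0.00 in log2). Cfi, which cleaves C3b and C4b, differed by 0.32 in HFD-IgG over standard diet and 0.22 in anti-VLA-4 over HFD-IgG. Serping1, the C1 inhibitor, differed by -0.30 and 0.53. Clu (clusterin), an inhibitor of the pore, had 358 (anti-VLA-4), 396 (HFD-IgG) and 379 (standard diet). Vtn, encoding vitronectin, which also inhibits the pore, was read by 10 spots per array. These ranged from 243 to 276 (anti-VLA-4), 189 to 233 (HFD-IgG) and 210 to 238 (standard diet), so that every anti-VLA-4 spot was above every spot of the other arrays. With normexp background correction the difference from standard diet was -0.17.

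The vitamin K-dependent proteins are proteases and cofactors carboxylated in the liver. For F10, the protease that activates prothrombin, the brighter probe read 550 (anti-VLA-4), 690 (HFD-IgG) and 658 (standard diet). Whether this probe detects transcripts of F10 alone was not tested, so its signal may not be that of F10. The dimmer F10 probe read 131 (anti-VLA-4), 108 (HFD-IgG) and 113 (standard diet), so the direction between the high-fat arrays depended on the probe. Pros1, the cofactor protein S, had 3.31 (anti-VLA-4), 2.82 (HFD-IgG) and 3.55 (standard diet). F2 (prothrombin), F7, F9 and Proc (protein C) differed by 0.08, 0.06, 0.01 and -0.02 in HFD-IgG over standard diet and by 0.28, 0.48, 0.31 and 0.33 in anti-VLA-4 over HFD-IgG. Of the 6 members, 5 lay above 0 in the second comparison, with a group median of 0.29, and F10 was below by its brighter probe. F5, the cofactor of factor X, had 29.7 (anti-VLA-4), 21.5 (HFD-IgG) and 30.5 (standard diet), and was 1.42-fold lower in HFD-IgG over standard diet and 1.38-fold higher in anti-VLA-4 over HFD-IgG, with like values from its second probe (-0.60 and 0.51 in log2).

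The contact phase starts coagulation on surfaces and releases bradykinin. F11, which activates factor IX, had scaled signals of 6.97 (anti-VLA-4), 4.19 (HFD-IgG) and 4.37 (standard diet). Klkb1, encoding prekallikrein, had 41.9 (anti-VLA-4), 27.7 (HFD-IgG) and 32.4 (standard diet). Anti-VLA-4 was high for both, at 1.67-fold and 1.51-fold over HFD-IgG. Kng1, encoding kininogen, had 456 (anti-VLA-4), 537 (HFD-IgG) and 539 (standard diet). F12, the initiating protease, differed by -0.11 in HFD-IgG over standard diet and 0.15 in anti-VLA-4 over HFD-IgG.

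Fibrinogen is made of 3 chains encoded by neighbouring genes, and its secretion needs all of them. Fga, the alpha chain, had scaled signals of 57.9 (anti-VLA-4), 27.7 (HFD-IgG) and 37.7 (standard diet), and its dimmer probe 21.5 (anti-VLA-4), 6.18 (HFD-IgG) and 10.6 (standard diet). Both probes were highest on the anti-VLA-4 array and lowest on the HFD-IgG array, while with normexp background correction anti-VLA-4 was level with standard diet (0.00). Anti-VLA-4 over HFD-IgG was 2.09-fold higher with the brighter probe, and the log2 differences were 1.06 and 1.80. HFD-IgG over standard diet gave -0.44 and -0.78. Fgb, the beta chain, had 710 (anti-VLA-4), 567 (HFD-IgG) and 565 (standard diet), and Fgg, the gamma chain, 611 (anti-VLA-4), 539 (HFD-IgG) and 495 (standard diet). These chains were 1.25-fold and 1.13-fold higher in anti-VLA-4 over HFD-IgG, the second within the scanner's error. Fga was thus the secreted member with the largest difference in that comparison, also with quantile scaling (1.13) and normexp background correction (1.22). F13b, the carrier chain of factor XIII, had 10 spots per array at 13.6 to 15.2 (anti-VLA-4), 10.9 to 12.2 (HFD-IgG) and 10.5 to 11.6 (standard diet), the first above all spots of the others, although the difference from standard diet was -0.03 with normexp background correction.

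**Figure D5:**
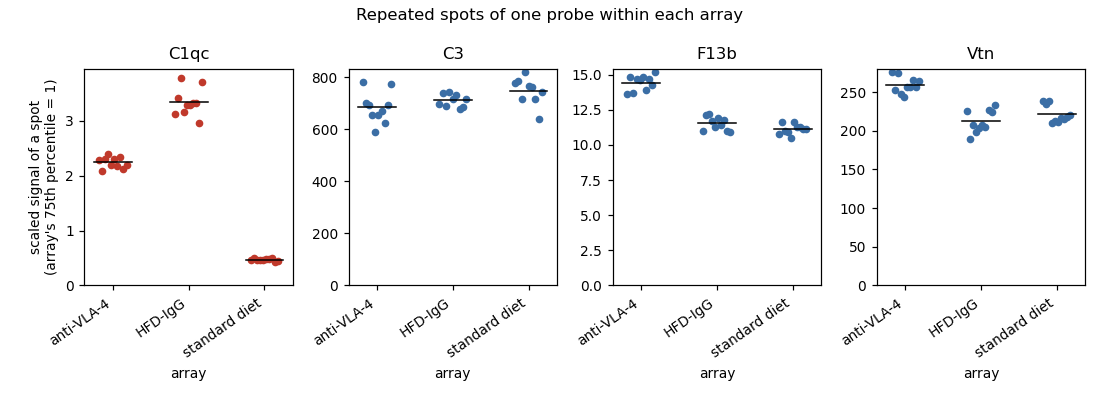
Scaled signal of the repeated spots of C1qc, C3, F13b and Vtn within the anti-VLA-4, HFD-IgG and standard-diet arrays, with a bar at the mean. The spots of C1qc do not overlap between any arrays, the anti-VLA-4 spots of F13b and Vtn lie above those of the other arrays, and the spots of C3 overlap.

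Serpins and plasmin limit and dissolve clots. Serpinc1, encoding antithrombin, had scaled signals of 383 (anti-VLA-4), 350 (HFD-IgG) and 420 (standard diet). Serpind1, encoding heparin cofactor II, had 114 (anti-VLA-4), 96.8 (HFD-IgG) and 71.7 (standard diet), and was 1.59-fold higher in anti-VLA-4 over standard diet, or 0.07 in log2 with normexp background correction. Serpinf2, the plasmin inhibitor, and Plg, encoding plasminogen, differed by 0.02 each in HFD-IgG over standard diet and by 0.53 and 0.32 in anti-VLA-4 over HFD-IgG. All 4 lay above 0 in the second of these, between 0.13 and 0.53.

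Promoters of C1q and fibrinogen genes are given next, since the chains of each complex lay on one side of 0 for anti-VLA-4 over HFD-IgG. They run from 250 bases before to 50 after the start of the gene, as RefSeq has them for build GRCm38.p6, 5′ to 3′ on the gene's strand. RefSeq's table held 37 of the 49 members. Capitals in the C1q promoters mark GAGGAA, the core bound by PU.1, a factor of myeloid cells, on either strand (TTCCTC on the other). C1qb lies at chr4:136886151-136886450, minus strand and C1qc at chr4:136892865-136893164, minus strand.
C1qb: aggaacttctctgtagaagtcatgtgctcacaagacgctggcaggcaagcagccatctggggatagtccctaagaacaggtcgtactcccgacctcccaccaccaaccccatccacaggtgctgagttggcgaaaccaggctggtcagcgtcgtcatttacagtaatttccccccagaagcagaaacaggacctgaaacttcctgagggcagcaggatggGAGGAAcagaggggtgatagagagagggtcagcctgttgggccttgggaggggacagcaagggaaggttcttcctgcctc
C1qc: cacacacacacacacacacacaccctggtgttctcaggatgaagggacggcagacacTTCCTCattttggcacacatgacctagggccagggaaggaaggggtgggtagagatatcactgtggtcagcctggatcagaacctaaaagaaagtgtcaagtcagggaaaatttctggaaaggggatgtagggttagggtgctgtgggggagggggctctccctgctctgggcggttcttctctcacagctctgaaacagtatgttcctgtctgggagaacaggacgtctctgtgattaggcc
GAGGAA occurred 1 time in each, and in 28.3% of 32851 promoters of this length. Capitals in the fibrinogen promoters mark CTGGGA, an element of genes induced by IL-6, and GTTAAT, part of the motif of the hepatocyte factor HNF1, again on either strand (TCCCAG and ATTAAC on the other). The windows are chr3:83025903-83026202, plus strand for Fga, chr3:83049814-83050113, minus strand for Fgb and chr3:83007474-83007773, plus strand for Fgg.
Fga: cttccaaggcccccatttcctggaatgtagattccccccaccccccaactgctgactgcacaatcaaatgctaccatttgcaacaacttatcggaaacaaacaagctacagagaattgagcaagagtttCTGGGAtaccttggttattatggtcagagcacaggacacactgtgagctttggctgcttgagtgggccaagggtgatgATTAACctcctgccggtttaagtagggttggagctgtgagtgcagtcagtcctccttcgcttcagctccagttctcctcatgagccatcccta
Fgb: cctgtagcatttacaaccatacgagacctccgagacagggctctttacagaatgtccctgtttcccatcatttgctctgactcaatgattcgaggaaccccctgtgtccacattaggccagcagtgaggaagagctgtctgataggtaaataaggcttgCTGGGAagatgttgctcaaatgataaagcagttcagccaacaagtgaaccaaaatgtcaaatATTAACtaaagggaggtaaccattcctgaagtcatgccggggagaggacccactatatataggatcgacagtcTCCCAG
Fgg: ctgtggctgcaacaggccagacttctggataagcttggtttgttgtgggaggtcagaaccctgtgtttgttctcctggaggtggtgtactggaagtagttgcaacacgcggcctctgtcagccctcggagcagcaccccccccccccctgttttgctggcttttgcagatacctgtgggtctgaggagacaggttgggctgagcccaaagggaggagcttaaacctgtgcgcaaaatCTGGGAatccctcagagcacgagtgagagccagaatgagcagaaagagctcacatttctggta
CTGGGA occurred 1 time in Fga, 2 times in Fgb and 1 time in Fgg, and in 31.8% of all promoters. GTTAAT occurred 1 time each in Fga and Fgb, and in 7.1% of all promoters. C1qc also holds CTGGGA 1 time and Fgb holds GAGGAA 2 times, left in lower case. None of these motifs contains another. These matches describe the letters of the windows only.

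Other genes of the same pathways, 52 by a list, included regulators and receptors of other cells. For HFD-IgG over standard diet 15 of 47 compared were at least 2-fold higher and 1 lower, beside 20.4% and 2.41% of all genes. In anti-VLA-4 over HFD-IgG 1 of 46 was higher and 2 lower, beside 1.9% and 16.5%. The counts for anti-VLA-4 over standard diet were 15 of 46 higher and 2 lower, beside 7.98% and 3.39%. Cfd, the protease factor D of the alternative pathway, had scaled signals of 2.86 (anti-VLA-4), 3.47 (HFD-IgG) and 0.148 (standard diet). Colec11 and Colec10, collectins of the lectin pathway, differed by 3.91 and 3.38 in log2 in HFD-IgG over standard diet. The endothelial genes Cd93 and Thbd, the second encoding thrombomodulin, differed by 3.10 and 2.93, and Cd93 by -1.12 in anti-VLA-4 over HFD-IgG. The other gene lower there was Plat, the tissue plasminogen activator, at -1.62 or below. Anxa2, a cell surface receptor in fibrinolysis, differed by 2.91, Vsig4, a complement receptor of Kupffer cells, by 2.49 and Cd55, a membrane inhibitor of convertases, by 2.40. Cr2, a complement receptor known from B cells, was the one higher in anti-VLA-4 over HFD-IgG (1.15 in log2). Of 3 B cell markers, 1 was above background, on the anti-VLA-4 array alone. C1ra and C1s1, the proteases of C1, differed by -0.03 and 0.35 in HFD-IgG over standard diet and by 0.31 each in anti-VLA-4 over HFD-IgG.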

How the data were processed

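RNA of hepatocyte preparations was measured on 3 arrays, 1 per group. Per the submitters' processing notes, the authors extracted spot intensities with Agilent Feature Extraction 11.0.1.1. Per the file headers, it subtracted background, detrended within arrays and set other values, namely flags for spots above background, non-uniform or saturated. A deposited table holds a linear ratio per spot, which matched processed signal over the array's 75th percentile within a relative 2e-08. It has 23206 rows, holds 47 members and served as an alternative. Its column medians were 0.81 (anti-VLA-4), 0.796 (HFD-IgG) and 0.787 (standard diet). Probe positions are those of the files (mm9).

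From these intensities, log2 of processed signal minus log2 of the 75th percentile of 43020 non-control spots was computed. Spots marked non-uniform or population outlier were left out, spots of a probe averaged, and a gene was read from the probe that was brightest on average (15 members had several). A comparison took genes well above background on either of its arrays. If the dimmer one failed this, the fold was bounded from below, using the array's lowest signal that passed, or the probe's signal if larger. Precision is limited by the number of arrays, and with 1 array per group no test was made. Calls are differences of at least 2-fold.

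The members and lists, and the rule for named genes, were chosen with earlier results of these data known. Every member is named, and each array's value is given for members outside the secreted class, secreted members at least 1.5-fold different, and the brightest and dimmest of each role. Of the other pathway genes the largest differences of at least 2-fold are named, plus C1ra and C1s1, chosen after their values were seen, and of the markers 8 defining ones. Also named outside this rule are the pathway genes Ggcx, Vkorc1, Lman1, Mcfd2 and Serpine2 and the markers Kdr, Ccr2 and Itga2b. A gene that the rule takes is not reported here. The steps were run on simulated copies of the standard-diet array, with known changes and noise scaled from the scanner's error. The copies shared that array's flags, so lower bounds and differences between slides or preparations were not tried. Alternatives were quantile scaling, normexp background correction (offset 50), no filter on dim genes, the mean over probes, probes of at most 50% purines, a 1.5-fold threshold and the deposited table. Python 3.11.15, numpy 2.4.6, pandas 2.3.3, matplotlib 3.10.9, limma 3.58.1 and R 4.3.3 were used.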

Additional observations from a re-analysis of the deposited data

How the results depend on the processing

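Normexp background correction changed the most. It moved the median of the secreted members to -0.68 in HFD-IgG over standard diet and to -0.19 in anti-VLA-4 over standard diet, and that of C1q and receptors to 1.83 and 1.63, with 3 members at least 2-fold lower in HFD-IgG over standard diet and 0 lower in anti-VLA-4 over HFD-IgG. The median of all genes was then 0.46, -0.14 and 0.27 in HFD-IgG over standard diet, anti-VLA-4 over HFD-IgG and anti-VLA-4 over standard diet, and with quantile scaling -0.06, 0.05 and -0.02. No filter on dim genes gave a C1q and receptor median of 2.56 in HFD-IgG over standard diet. Members at least 2-fold higher in anti-VLA-4 over HFD-IgG numbered 2 with no filter and 2 with quantile scaling, and members lower numbered 0 with quantile scaling, 0 with probes of at most 50% purines, 2 with the mean over probes and 2 with the dimmest probe above background, an alternative chosen after seeing the data. At 1.5-fold, 4 members were higher and 4 lower in that comparison, and 13 were higher in anti-VLA-4 over standard diet. The causes were not tested, apart from the looser threshold and the smaller number of probes by construction. The other summaries kept their direction and stayed within the scanner's error or 1.5 times the count. No paired analysis was possible because each group has 1 array, and no replicate could be left out. Dim members such as C3ar1, C5ar1 and F13a1 are limited by their signal over background.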

Other observations

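Regulators of the secreted factors were read as a further list of 12 transcription factor and cytokine signalling genes. For anti-VLA-4 over HFD-IgG 1 of 12 was at least 2-fold higher and 0 lower, beside 1.9% and 16.5% of all 22589 genes compared. That gene was Il1r1, the IL-1 receptor, with scaled signals of 3.08 (anti-VLA-4), 0.957 (HFD-IgG) and 2.27 (standard diet) and a log2 difference of 1.69. Stat3, through which IL-6 acts on acute phase genes such as fibrinogen, had 18.2 (anti-VLA-4), 9.12 (HFD-IgG) and 10.4 (standard diet), a difference just short of 2-fold. Fga had the same order of arrays as Il1r1, being highest on anti-VLA-4 and lowest on HFD-IgG. That order was not particular to Fga. Klkb1, Serping1, Masp1, Masp2, C8a, Vtn, Proc, F11 and F12 had it too, several with HFD-IgG within the scanner's error of standard diet. Fgb and Fgg differed by 0.01 and 0.12 in HFD-IgG over standard diet, within the scanner's error. The part of IL-1 or IL-6 signalling in the Fga values was not tested. In HFD-IgG over standard diet Il6st, the shared chain of IL-6 family receptors, was higher (1.17) and Il1r1 (-1.25) and Onecut1 (-1.44) were lower. Hnf4a, a regulator of many clotting factor genes, had 111 (anti-VLA-4), 92.7 (HFD-IgG) and 148 (standard diet). These genes were named after their values were seen.

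Ggcx, the carboxylase of the vitamin K-dependent proteins, had scaled signals of 2.74 (anti-VLA-4), 1.58 (HFD-IgG) and 1.85 (standard diet), which is 0.79 in log2 between anti-VLA-4 and HFD-IgG. Vkorc1, the vitamin K reductase, differed by -0.18 in HFD-IgG over standard diet and 0.23 in anti-VLA-4 over HFD-IgG. Lman1 and Mcfd2, the cargo receptor of factors V and VIII, differed by 0.18 and -0.38 in the first comparison and by 0.08 and 0.11 in the second. Serpine2, encoding a serpin that inhibits thrombin, was the one gene of the pathway list at least 2-fold lower in HFD-IgG over standard diet, with 0.123 (anti-VLA-4), 0.116 (HFD-IgG) and 0.379 (standard diet).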
